A study of Mus musculus with 6 samples.

Results

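Ttn and Neb encode titin and nebulin, the giant proteins of the muscle sarcomere, and their H2Bub signal is described here before and after C2C12 cells formed muscle fibres. H2Bub is histone H2B carrying a single ubiquitin. The members were taken by gene interval on build mm9 and not by any measured value: they are 2 of 49550 genes listed by RefSeq for chromosomes 1 to 19 and X, and cover 52 of 250807 windows of 10 kb that held reads. C2C12 is an established mouse myoblast line that stops dividing and fuses into multinucleated myotubes when serum is lowered. One group of 3 libraries came from dividing myoblasts (MB), kept in 10% fetal bovine serum and collected near 40% confluency. The other 3 came from myotubes (MT) after 96 h in 2% horse serum, which was begun at full confluence. In all 6 libraries the chromatin had been cut with micrococcal nuclease and precipitated with the same H2Bub antibody clone. Each library has its own antibody lot number in the labels, so lot and library cannot be told apart. The source names spell the line C1C12. No transcripts were measured, so the cell type labels were not checked against markers. These are bulk cultures, in which fewer cells carrying the mark and less of the mark per cell cannot be told apart.

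Titin runs as a single molecule from the Z disc to the M line of the sarcomere and works as its molecular spring and as a scaffold for the thick filament. Nebulin lies along the actin thin filament of skeletal muscle and stabilises its length. Both genes are switched on as myoblasts differentiate. The mark itself is placed on H2B by the RNF20/RNF40 ligase together with elongating RNA polymerase II, so in many cell types it lies over the bodies of transcribed genes, and long, strongly transcribed genes are where it would usually be looked for.

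The intervals were chr2:76542000-76821000 for Ttn (279 kb) and chr2:51992000-52234000 for Neb (242 kb), both on mm9. No mm9 annotation was used. RefSeq gene models on GRCm38.p6 were 278.6 kb long for Ttn, a difference of 0.422 kb, but 202.2 kb for Neb, so the Neb interval is 39.8 kb longer than that model. The RefSeq table places Ttn on the minus strand. Neb was also read as a minus-strand gene, from general knowledge, so the start of each gene was taken as the high-coordinate end of its interval. Which side of Neb holds the extra 39.8 kb was not checked. If it is the start side, the RefSeq start lies inside the interval, and Neb distances from the start are too long by about that amount. The 250 bases before the Ttn start, chr2:76982548-76982797 on GRCm38.p6, minus strand, are shown because the windows at this end of the gene are described below. The sequence is from RefSeq, 5′ to 3′, with the motif matches in capitals.
Ttn: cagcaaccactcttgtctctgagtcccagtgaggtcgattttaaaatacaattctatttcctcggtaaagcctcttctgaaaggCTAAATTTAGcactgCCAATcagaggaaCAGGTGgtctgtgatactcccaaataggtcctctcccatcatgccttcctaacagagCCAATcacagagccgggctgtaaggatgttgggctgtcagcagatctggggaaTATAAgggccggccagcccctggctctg
Matches were sought on both strands. The MEF2 box (CTANNNNTAG), the site of a family of muscle transcription factors, had 1 match at -166 to -157 relative to the gene start; 3.20% of 32851 promoter windows of the same length held one. The E-box (CANNTG), the site of MyoD-type factors, had 1 match at -138 to -133 and was present in 66.2% of the windows. The TATA box (TATAA) had 1 match at -28 to -24 (22.8% of windows), the CCAAT box had 2 (33.8%), and the CArG box had 0 (1.47%). No motif overlapped another.

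Neither gene held a single H2Bub peak in the myoblast list, and both held peaks in the myotube list. MB peaks occurred at 72.5 per Mb over chromosomes 1 to 19 and X and at 93.3 per Mb on chromosome 2, and 0 lay inside Ttn or Neb. MT peaks were rarer in the genome, at 9.76 per Mb, and 11.6 per Mb on chromosome 2. Ttn held 13 MT peaks, or 46.6 per Mb, which covered 5632 bp (2.02% of the gene against 0.299% of the genome). Neb held 3 MT peaks, or 12.4 per Mb, which covered 889 bp (0.367%). Thus the peak density of Neb was close to that of the chromosome and that of Ttn was several times as high. Of 5619 windows of 250 kb without an MB peak, 7 (0.125%) held 13 or more MT peaks, and 363 (6.46%) held 3 or more; their median was 0 and their highest count 29. The Ttn interval, at 279 kb, is longer than these windows and that of Neb, at 242 kb, is shorter, and the counts were not adjusted for length. Each list is 1 set per group with no score per peak, so these counts have no replicate error.

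Read density on both genes was above the peak-free level in all 6 libraries. Density is given here relative to the peak-free genome, meaning the 208685 windows of 10 kb that held reads and no peak of either list, whose density is 1 by definition. Over Ttn this ratio was 1.38, 1.46 and 1.53 in MB replicates 1 to 3 and 1.82, 1.40 and 1.78 in MT replicates 1 to 3. MT replicate 2 lay inside the myoblast range and the other MT libraries above it, so the groups overlapped. The means were 1.45 ± 0.0759 in myoblasts and 1.67 ± 0.235 in myotubes (SD of 3 libraries; two-sided p = 0.3 by exact permutation).

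Over Neb the ratio was 1.20, 1.21 and 1.21 in myoblasts and 1.56, 1.37 and 1.51 in myotubes. All myotube libraries lay above all myoblast libraries here, with means of 1.21 ± 0.00624 and 1.48 ± 0.0994 (SD of 3 libraries; two-sided p = 0.1 by exact permutation). That p is the smallest that 3 against 3 libraries allow, so no such comparison could reach 0.05. The labels do not say that the libraries came from separate cultures, so each p measures only how far these samples scatter, and that scatter may be technical. Against 10089 windows of 250 kb over the genome, the myoblast level of Ttn was above 60.7% of them and its myotube level above 96.3%. Neb was above 53.5% and then 88.5%. Among the 5619 windows without an MB peak, both genes already ranked high in myoblasts: Ttn was above 97.7% of them before and 99.4% after differentiation, and Neb above 91.3% and 96.7%.

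**Figure D1:**
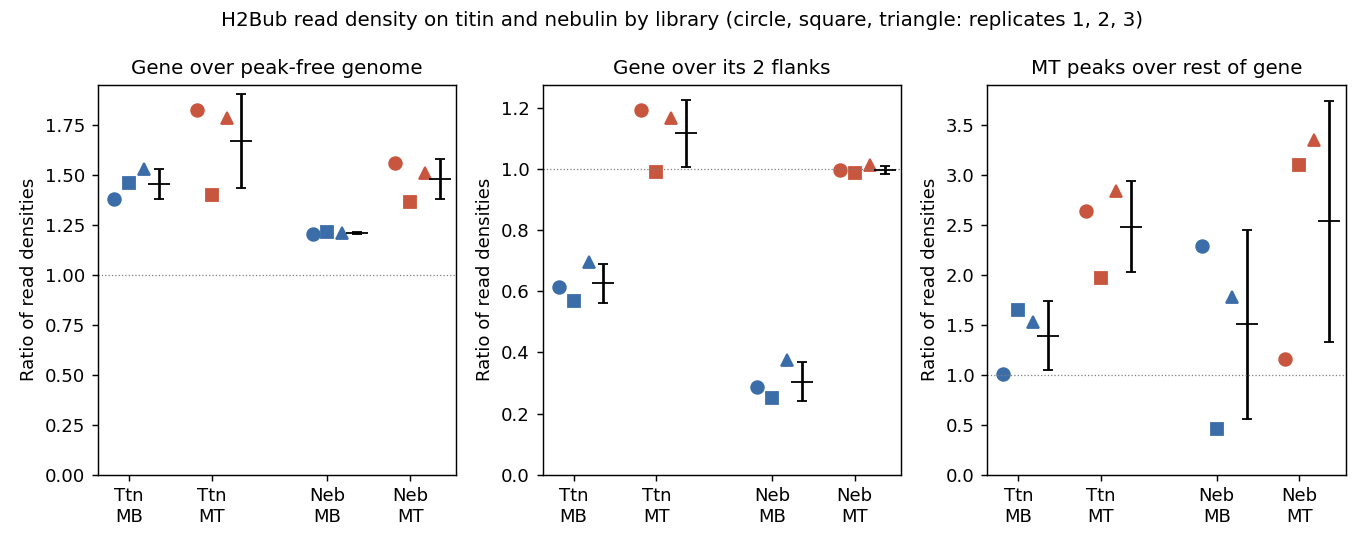
Ratios of H2Bub read density for Ttn and Neb in each library (points; MB blue, MT red) with the mean and SD of each group (black, n = 3); the dotted line marks a ratio of 1. Over the peak-free genome the Neb groups are apart and the Ttn groups overlap through MT replicate 2, at 1.40; over the flanks both genes are apart; the ratio of MT peaks to the rest of the gene is set partly by the choice of those peaks.

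Scaled to all reads, both genes had about 2 times as many reads in myotubes, which was only a little more than most of the genome. Ttn had 85.1, 78.6 and 99.0 RPM (read counts scaled to the size of the library) in myoblasts and 182, 147 and 178 RPM in myotubes. The myotube values were all higher, by 0.91 on the log2 scale (SE 0.11, adjusted p = 9.24e-10 by limma). Neb had 64.4, 56.8 and 67.8 RPM in myoblasts and 135, 125 and 130.3 RPM in myotubes, again without overlap (1.03 on the log2 scale, SE 0.12, adjusted p = 9.24e-11 by limma). The same test called 65.2% of 250 kb windows higher in myotubes, and the median window stood at 0.75 on the log2 scale, so most of the genome shared a rise of this kind. The peak-free windows held 40.4% to 48.5% of myoblast reads but 74.5% to 78.8% of myotube reads, the highest share being in MT replicate 2.

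With background scaling, which sets the bulk of 10 kb windows level between libraries by trimmed mean of M-values (TMM) and moves the median of 250 kb windows to 0.06, the Neb increase passed the test and the Ttn increase did not. For Neb the log2 fold change was 0.34 (SE 0.10, limma adjusted p = 0.0063), above 95.3% of windows. For Ttn it was 0.26 (SE 0.13, limma adjusted p = 0.0742), above 86.6% of windows. These ranks are over all 10089 windows, of which 5619 held no MB peak, as neither gene did. Ranks and shares of calls for the fold change were not computed among those 5619 alone. At this scaling 18.6% of 250 kb windows were called higher, a share that ranged from 7.43% without MT replicate 1 to 31.7% without MB replicate 1, with 7.56% without MB replicate 2 and 9.90% without MT replicate 2. Both calls turned on 1 library. Without MT replicate 2 the value for Ttn was 0.39 (limma adjusted p = 0.020), and without MT replicate 1 that for Neb was 0.27 (limma adjusted p = 0.118).

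**Figure D2:**
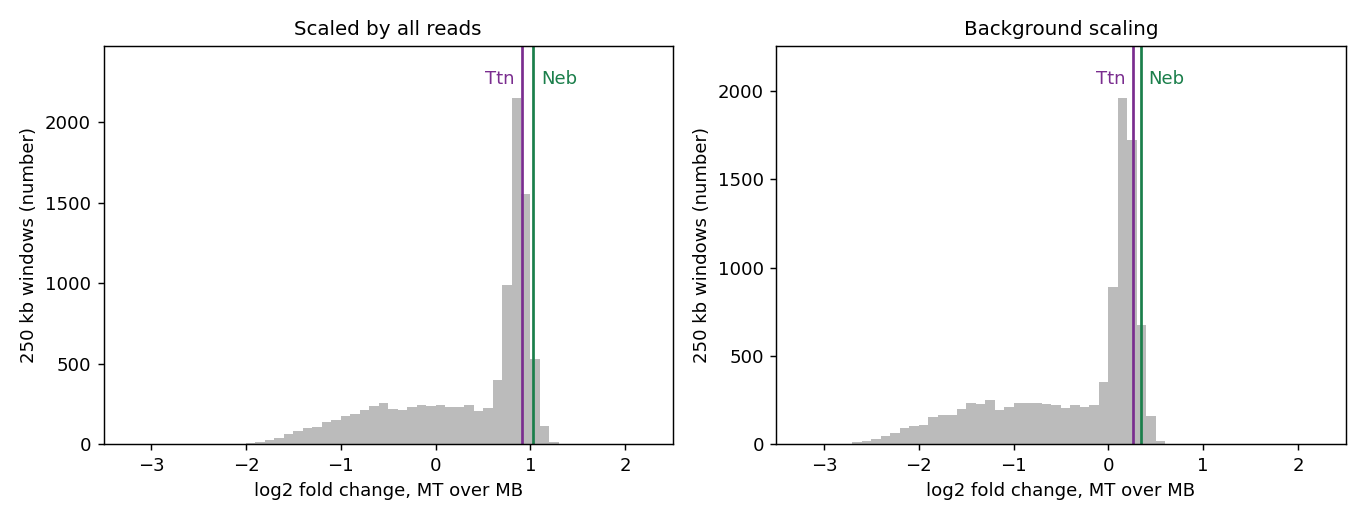
Number of 250 kb windows by log2 fold change of myotubes over myoblasts (grey bars, steps of 0.1), with Ttn (purple) and Neb (green) as vertical lines, under scaling by all reads (left) and background scaling (right). Both genes lie on the right side of the main peak, Neb farther out than Ttn (1.03 and 0.91 on the left, 0.34 and 0.26 on the right), and the bars reach farther to the left than to the right.

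Window by window, the rise was spread over both genes in the scaling by all reads and was mostly too small to call beyond the genome-wide shift. With all reads, 27 of 28 Ttn windows and 23 of 24 Neb windows were higher and 0 were lower, where 70.9% of 233813 tested windows were higher and 13.1% lower (limma, adjusted p under 0.05). Their median log2 fold changes were 1.02 and 1.04, against 0.78 over all windows. With background scaling 0 Ttn windows were higher and 1 was lower, and 3 Neb windows were higher and 1 lower, where 2.15% of all windows were higher and 18.8% lower. The medians were then 0.31 in Ttn and 0.33 in Neb against 0.08 over all windows. The Ttn count of higher windows was 7 without MT replicate 2, where 3797 of 235942 windows over the genome were higher. That of Neb was 0 without MB replicate 2 or MT replicate 3 and 1 without MT replicate 1. Over the genome 1851 of 236345, 4356 of 234559 and 2517 of 236626 windows were higher in these 3 settings.

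Comparing libraries directly on density over the peak-free genome, all MT libraries were above all MB libraries in 4 of 28 Ttn windows (14.3%) and 8 of 24 Neb windows (33.3%), where 9.92% of all windows showed this. The reverse order was found in 1 window of each gene (3.57% and 4.17%), where 20.5% of all windows showed it. The Ttn share was thus near the background, and the Neb share was above it. The mean was higher in myotubes in 21 of the Ttn windows and 22 of the Neb windows.

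Among the Ttn windows, the largest log2 fold change was at chr2:76760001-76770000, a window with 1 MT peak, where density over the peak-free genome was 1.60, 1.18 and 1.33 in myoblasts and 2.14, 1.61 and 2.09 in myotubes. Those groups were apart only narrowly (1.25 on the log2 scale, SE 0.21, adjusted p = 1.19e-05 by limma; with background scaling 0.54, adjusted p = 0.0753). The highest myotube level was at chr2:76570001-76580000, a window with 3 MT peaks, at 3.19, 1.46 and 3.31 in myotubes and 1.17, 1.92 and 2.38 in myoblasts. There MT replicates 1 and 3 stood above every other library while MT replicate 2 sat among the myoblasts (log2 fold change 1.16, adjusted p = 0.000178; with background scaling 0.52, adjusted p = 0.182).

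At the gene start, the windows chr2:76810001-76820000 and chr2:76800001-76810000, next to the promoter printed above, had log2 fold changes of 1.10 and 1.15 with all reads (limma adjusted p = 4.79e-05 and 3.99e-05) and 0.43 and 0.44 with background scaling (adjusted p = 0.185 and 0.173). The first of them had 1.12, 1.68 and 1.71 times the peak-free density in myoblasts and 2.14, 1.81 and 1.92 times in myotubes, with no overlap.

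At the other end of Ttn the order was turned around. The last window, chr2:76540001-76550000, reaches past the end of the interval at 76542000 into the flank. It had the highest myoblast level of the gene, at 3.01, 3.06 and 3.01, and 1.98, 1.38 and 1.80 in myotubes. It was the only Ttn window with every myotube library below every myoblast library; its log2 fold change was -0.070 with all reads (limma adjusted p = 0.731) and -0.78 with background scaling (adjusted p = 0.00417). The next window, chr2:76550001-76560000, had 1.90, 2.46 and 1.92 in myoblasts and 2.36, 1.49 and 1.99 in myotubes, with overlap.

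Neb had the same order at its end. Its last window, chr2:51990001-52000000, also reaches into the flank, past the end of the interval at 51992000. That window had the highest myoblast level of Neb, at 1.90, 2.46 and 1.87, against 1.15, 1.03 and 1.01 in myotubes. Its log2 fold change was -0.21 with all reads (limma adjusted p = 0.324) and -0.91 with background scaling (limma adjusted p = 0.000344). The adjacent window, chr2:52000001-52010000, which holds an MT peak, went the other way, from 1.36, 1.23 and 0.948 to 1.63, 1.63 and 1.66 (log2 fold change 1.27, limma adjusted p = 1.01e-05; with background scaling 0.57, adjusted p = 0.04996).

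Inside Neb the largest log2 fold change was at chr2:52190001-52200000, a window without a peak, with 1.17, 0.838 and 0.921 in myoblasts and 1.28, 1.49 and 1.65 in myotubes (1.35, SE 0.23, limma adjusted p = 1.26e-05; with background scaling 0.63, adjusted p = 0.0347). The neighbouring window chr2:52180001-52190000 had the highest myotube level of the gene, at 2.01, 1.89 and 1.84 against 1.22, 1.13 and 1.65, and a log2 fold change of 0.54 with background scaling (adjusted p = 0.0758). The third window called higher with that scaling, chr2:52100001-52110000, was named after its values were seen; it holds an MT peak and went from 1.31, 0.936 and 1.08 to 2.04, 1.40 and 1.59 (log2 fold change 0.64, adjusted p = 0.0327). The windows at the start of the Neb interval, chr2:52220001-52230000 and chr2:52210001-52220000, had 0.13 and 0.24 with background scaling (limma adjusted p = 0.742 and 0.496). They did not differ beyond their spread on that scale. If the extra 39.8 kb of the interval is at the start side, both lie outside the RefSeq model and do not describe its start.

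**Figure D3:**
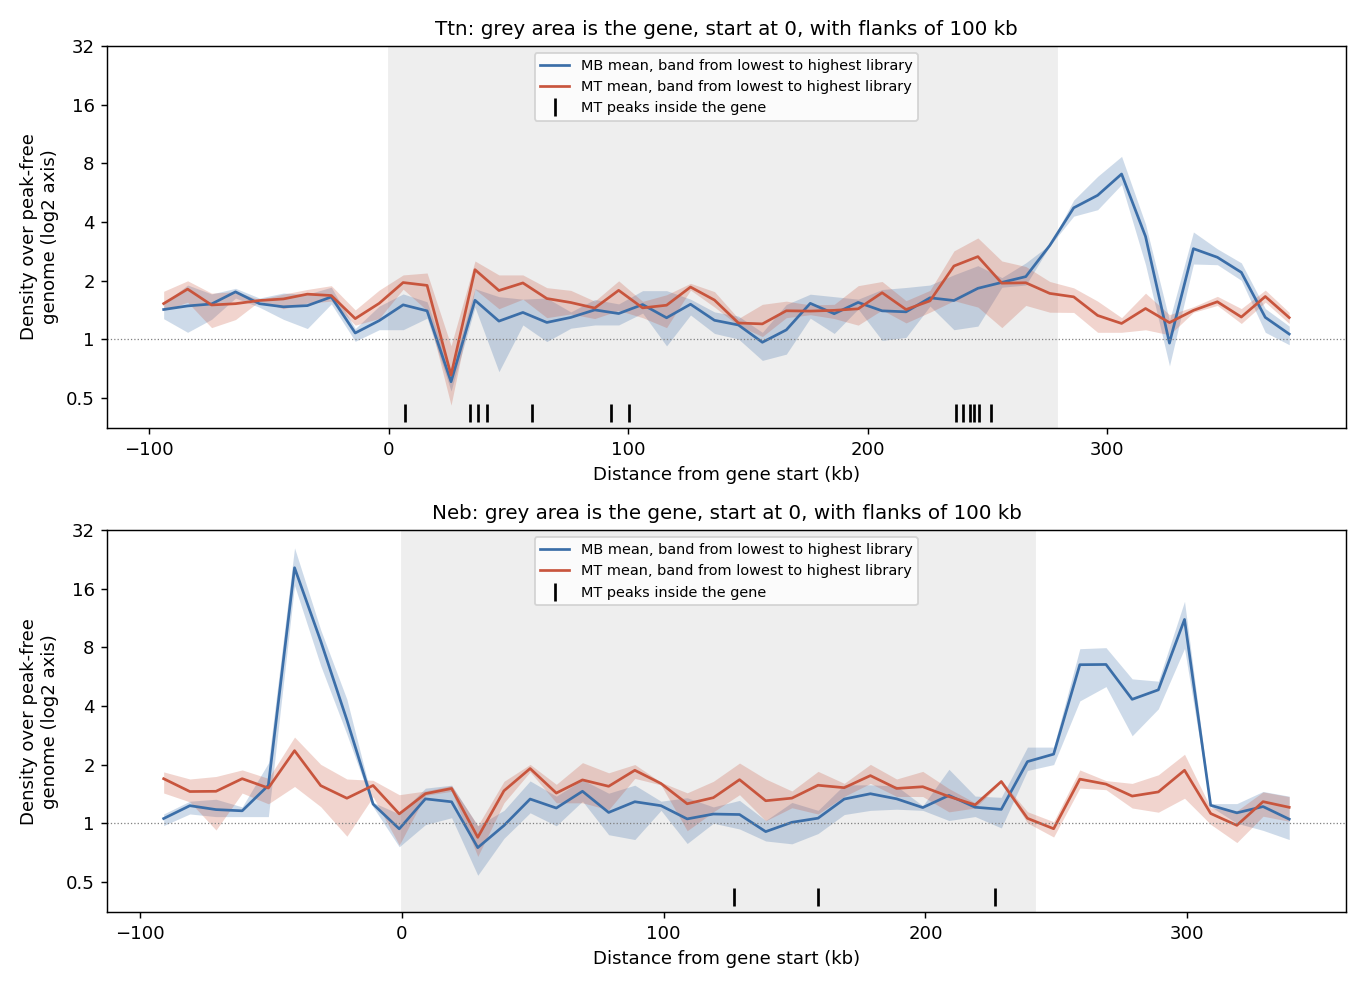
H2Bub density in 10 kb windows along Ttn (top) and Neb (bottom), as a ratio to the peak-free genome on a log2 axis, against distance from the gene start in kb; lines are group means, bands run from the lowest to the highest of 3 libraries, and ticks mark MT peaks. Inside the grey gene areas the group means lie between 0.605 and 3.03, while in the flanks the myoblast line climbs to 20.5 beside Neb and 7.04 beside Ttn and the myotube line does not.

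MB peaks, absent from both genes, lay in every flank of 100 kb except that beyond the Ttn start. Beyond the end of Ttn, where RefSeq lists Plekha3, Fkbp7, Pjvk and Prkra, the 100 kb flank held 20 MB peaks and 1 MT peak, and its density was 3.20 ± 0.406 in myoblasts and 1.41 ± 0.0336 in myotubes (SD of 3 libraries). Beyond the start of Ttn, toward Ccdc141, the flank held 0 peaks of either list and had 1.46 ± 0.0312 and 1.57 ± 0.104, with overlapping groups. Neb lies between 2 flanks rich in myoblast peaks. The one beyond its end, toward Rif1 and Tnfaip6, held 32 MB peaks and 1 MT peak and had 4.08 ± 0.94 and 1.34 ± 0.0393. The one beyond its start, toward Arl5a and Cacnb4, held 17 MB peaks and 4 MT peaks and had 4.10 ± 0.74 and 1.61 ± 0.142. The neighbours are named from GRCm38, and single windows were not assigned to them.

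The flank window with the highest myoblast level, chr2:52270001-52280000, had a mean of 20.5 times the peak-free density in myoblasts and 2.36 times in myotubes, and holds 4 MB and 3 MT peaks. Gene density over flank density was higher in myotubes for both genes. The density of 3 of the 4 flanks was lower in myotubes, and that beyond the Ttn start overlapped between groups. For Ttn it was 0.616, 0.568 and 0.695 in myoblasts and 1.19, 0.991 and 1.17 in myotubes. For Neb it was 0.287, 0.249 and 0.375 in myoblasts and 0.996, 0.986 and 1.01 in myotubes. Neither gene's groups overlapped (two-sided p = 0.1 by exact permutation for each). In myotubes Neb was thus about as dense as its flanks, and in myoblasts it was a trough between marked neighbours.

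The last windows of both genes adjoin these marked flanks. In Ttn the myoblast ratio went from 4.72 in the flank window next to the gene to 3.03, 2.09 and 1.96 in its last 3 windows. In Neb it was 2.27 in the adjoining flank window, 2.08 in the last window of the gene and 1.18 in the next. Without the 10% of Ttn at its end the density over the peak-free genome was 1.36 ± 0.086 in myoblasts and 1.64 ± 0.21 in myotubes, still with overlap through MT replicate 2, at 1.40 (SD of 3 libraries; two-sided p = 0.2 by exact permutation). For Neb it was 1.20 ± 0.013 and 1.49 ± 0.104 (p = 0.1 by the same exact test).

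Divided into 10 equal parts from start to end, Ttn had higher myotube means in 9 of 10 parts and Neb in 10 of 10. No such count was made elsewhere in the genome, so these have no background. The Ttn differences were uneven. The largest were in parts 2 and 9, with 1.44 ± 0.286 against 1.96 ± 0.365 and 1.68 ± 0.366 against 2.22 ± 0.663 (SD of 3 libraries), and these hold 3 and 5 of the MT peaks. Parts 5 to 8 hold 0 peaks and differed by 0.28, 0.18, 0.0418 and 0.0676, and part 10, at the gene end, by -0.409. In Neb the differences were more even, from 0.288 to 0.433 in parts 2 to 8, and 0.117, 0.0645 and 0.0376 in parts 1, 9 and 10. Part 1 of Neb lies outside the RefSeq model if the extra 39.8 kb of the interval is at the start side.

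The gene start was compared with the rest of each gene. In Ttn the density of the 10% of the gene at its start, divided by that of the remaining 90%, was 0.766, 0.770 and 0.749 in myoblasts and 0.935, 0.862 and 0.888 in myotubes. These groups did not overlap (two-sided p = 0.1 by exact permutation), and the marked end of the gene in myoblasts enters the lower ratio. With only the first 10 kb as the start, the myotube mean was higher by 0.136. The groups then overlapped (p = 0.5 by the same exact test). The 10% at the start takes in part of chr2:76790001-76800000, which had 0.605 times the peak-free density in myoblasts and 0.655 times in myotubes. Both windows nearer the start were above the peak-free level in every library. In Neb the ratio for the 10% at the start was 1.12, 0.970 and 1.24 in myoblasts and 0.943, 1.07 and 0.915 in myotubes. Those groups overlapped (p = 0.2 by the same exact test). If the extra 39.8 kb of the Neb interval is at the start side, this 10% lies outside the RefSeq model. The Neb ratio would then not compare the gene start with the rest.

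The MT peaks of Ttn were wider at the median than MT peaks without an MB peak over the genome, and few reads lay behind each. They were 219 to 850 bp wide with a median of 432 bp, where the 11688 such peaks of the genome had a median of 264 bp. Their median was 0.613 RPM in myotubes and 0.177 RPM in myoblasts, against 0.414 and 0.146 RPM for the genome; these are reads per peak, which grow with width, and are no comparison per base. Each Ttn peak held 12 to 43 reads over the 3 myotube libraries and 2 to 14 over the 3 myoblast libraries. In 6 of 13 peaks at least 1 myoblast library had 0 reads. MT peaks are where myotube reads were dense enough to be called, so their direction is largely set by their choice: the myotube mean was the higher one in 13 of 13 Ttn peaks and in 93.9% of the 11688.

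Summed over the 13 peaks, Ttn gave 1.72, 2.57 and 3.02 RPM in the myoblast libraries and 9.36, 5.73 and 9.81 RPM in myotubes. The sums were 3.40 times as high in myotubes, where all MT peaks without an MB peak gave 2.26 times, and no test is given since the peaks come from the myotube list. Density in these peaks was 1.00, 1.64 and 1.53 times that of the rest of Ttn in myoblasts and 2.63, 1.97 and 2.84 times in myotubes. The rest of the gene, with the peaks left out, had 1.44 ± 0.0679 times the peak-free density in myoblasts and 1.62 ± 0.215 in myotubes (SD of 3 libraries; two-sided p = 0.4 by exact permutation). There MT replicate 2, at 1.37, was just below the lowest myoblast library, at 1.38. The libraries thus do not show what share of the difference the peaks carried.

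The 3 Neb peaks were 255, 276 and 358 bp wide and held 41 myotube and 13 myoblast reads in all. Their sums were 0.538, 0.0953 and 0.440 RPM in myoblasts and 0.571, 1.41 and 1.59 RPM in myotubes, with MT replicate 1 barely above MB replicate 1. The rest of Neb had 1.21 ± 0.0104 in myoblasts and 1.47 ± 0.103 in myotubes (SD of 3 libraries; two-sided p = 0.1 by exact permutation), almost the values of the whole gene. The widest Neb peak, chr2:52074673-52075031, lay 159 kb from the gene start and averaged 0.131 ± 0.0508 RPM (SD of 3 libraries) before and 0.464 ± 0.208 RPM after differentiation.

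Of the 13 Ttn peaks, 9 lay in 2 groups. A stretch of 15.1 kb, chr2:76569251-76584342, held 6 of the 13; it begins 27.3 kb from the gene end and was picked after the peaks were seen, as 3 or more peaks with gaps of up to 10 kb. It includes the widest peak, chr2:76577672-76578522 (850 bp), with 0, 0.286 and 0.692 RPM in myoblasts and 1.48, 0.866 and 1.52 RPM in myotubes. Over the whole stretch, density relative to the peak-free genome was 1.13, 1.86 and 2.28 in myoblasts and 3.36, 1.56 and 3.23 in myotubes. MT replicates 1 and 3 were well above all other libraries, and MT replicate 2 was below MB replicates 2 and 3.

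A second stretch, chr2:76779958-76787273, with 3 peaks in 7.32 kb, begins 33.7 kb from the gene start. There the ratio was 1.66, 1.82 and 1.89 in myoblasts and 2.62, 2.00 and 2.51 in myotubes, and the groups were apart. The peak nearest the Ttn start was centred 6.59 kb inside the gene, at chr2:76814190-76814622, with 0, 0.286 and 0.189 RPM in myoblasts and 0.571, 0.649 and 0.415 RPM in myotubes. No MT peak lay closer to the promoter. The 3 remaining Ttn peaks were centred 59.7, 92.6 and 100.3 kb from the gene start.

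**Figure D4:**
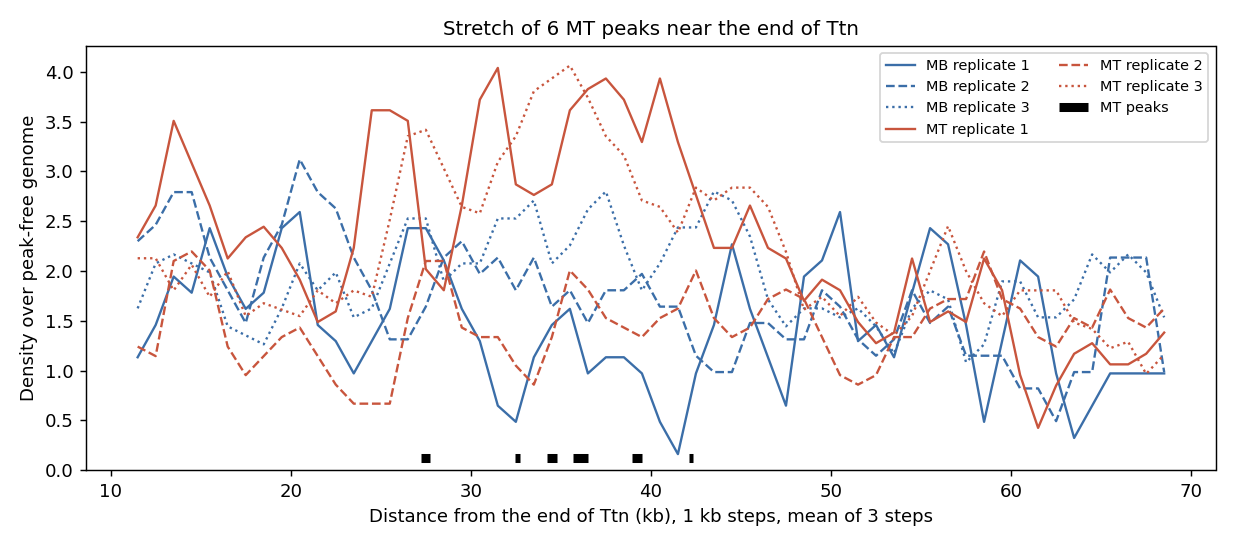
H2Bub density by library around the 6 neighbouring MT peaks (black bars) near the end of Ttn, as a ratio to the peak-free genome in 1 kb steps (running mean of 3 steps), against distance from the gene end in kb. MT replicates 1 and 3 run above the other libraries over most of the stretch between 27.3 and 42.3 kb, where their ratios are 3.36 and 3.23, while MT replicate 2 (1.56) runs among the myoblast libraries.

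Set against each other within a library, which needs no scaling between libraries, Ttn was the denser gene throughout. The log2 ratio of Ttn to Neb density was 0.20, 0.26 and 0.34 in myoblasts and 0.23, 0.03 and 0.24 in myotubes. The groups overlapped, with a difference of -0.10 (two-sided p = 0.4 by exact permutation), so the genes could not be shown to change by different amounts. MT replicate 2, with the lowest value, also had the lowest Ttn density over the peak-free genome of the 3 myotube libraries.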

How the data were processed

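The authors deposited, per library, a line per mapped read with its chromosome, coordinate and strand (build mm9, per the submitters' processing notes), and per group a list of peaks without scores. Not given in the sources used here are aligner, filters, peak caller and pooling. The files held 8767810 to 15903500 reads and 0 repeated positions within a library, which can compress dense regions. Plus-strand reads preceded minus-strand reads by 98 to 113 bp on chromosome 2.

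Read counts on chromosomes 1 to 19 and X were made here from the deposited coordinates in the 2 intervals, in windows of 10 kb (assigned by midpoint) and of 250 kb, and in peaks, and scaled to the reads on those chromosomes. Windows needed 10 reads at the median library size in 3 libraries and 15 in all. Voom weights and two-sided tests came from limma 3.58.1 (R 4.3.3), and p-values were Benjamini-Hochberg adjusted across every window tested (233813 of 10 kb; 10089 of 250 kb with the 2 genes added), with a threshold of 0.05. The procedure was tested on simulated data. Single values per library were compared by exact two-sided permutation. Alternatives covered scaling (TMM over 10 kb windows, or reads in peak-free windows), a replicate block, each library left out, limma-trend, no floor, 5 and 20 kb windows, shifted positions, shortened intervals and other flanks.

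The windows named are, per gene, those with the largest and smallest log2 fold change, the highest mean in each group and the last 2 at each end, with the widest peak of each list; others were chosen after their values were seen. The genes, lists and tests were chosen with earlier results of these data known. Python 3.11.15 with SciPy 1.17.1 did the remaining steps. Other sarcomere genes were not analysed here, since no mm9 annotation was used.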

Additional observations from a re-analysis of the deposited data

How the results depend on the processing

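Scaling decided most calls. For Ttn the log2 fold change of the gene was 0.26 with background scaling and 0.20 with scaling by peak-free windows, neither past the threshold (limma adjusted p = 0.0742 and 0.186); Neb stayed past it under both. Leaving out 1 library at a time with background scaling gave 0.15 to 0.39 for Ttn and 0.27 to 0.41 for Neb. Higher 10 kb windows went from 27 to 0 in Ttn under both scalings, and from 23 to 3 and 0 in Neb; lower windows went from 0 to 1 in each gene under both. Without 1 library, background scaling gave 0 to 7 higher windows in Ttn and 0 to 4 in Neb, where 1851 to 5232 windows over the genome were higher. With all reads, windows of 5 kb gave 47 of 55 higher in Ttn and 43 of 48 in Neb, with 1 lower in Neb. Over the genome 231612 of 407940 such windows were higher. Windows of 20 kb gave 13 of 14 and 12 of 12, where 93590 of 122388 were higher over the genome. With background scaling, 5 kb windows gave 1 of 55 and 0 of 48 higher (4955 of 407940 over the genome). Windows of 20 kb then gave 1 of 14 in Ttn and 4 of 12 in Neb (4844 of 122388 over the genome), with 0 lower in each gene. Peak-free scaling called 10.1% of 250 kb windows higher. Over all windows, 165795 were higher with all reads, 5028 with background scaling and 3194 with peak-free scaling; without MB replicate 2 and MT replicate 1 the 5028 became 1851 and 2517.

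With the replicate number as a block the genes had 0.96 and 1.04, with 27 and 23 higher windows (166077 of 233813 over the genome). With background scaling the block called 2 Ttn and 4 Neb windows higher (6812 of 233813 over the genome). Deviations of same-numbered libraries correlated at 0.002, -0.169 and 0.157 over 10 kb windows, and MB replicate 1 was closest to MT replicate 2 (0.213), so no pairing was assumed. Cut to the RefSeq length, counted from the gene end, Neb had 1.04 with all reads and 0.34 with background scaling (limma adjusted p = 0.00454). The rest of its interval, at the start side, had 0.98 and 0.28 (limma adjusted p = 0.0536 with background scaling).

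The Ttn window at 76540001 ranged from -0.162 to 0.041 when 1 library was left out, being positive without MT replicate 2, and the log2 fold change of that at 76550001 was -0.072 with background scaling and -0.13 with scaling by peak-free windows; the cause was not tested. The ratios per library kept their direction under each alternative tried on them. For the Ttn start over the rest of the gene, the groups overlapped when only the first 10 kb was taken as the start. Depth limits single peaks most, since each held 43 or fewer reads over 3 libraries.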

Other observations

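The window profile of Ttn was more alike between some libraries than others. Across its 28 windows of 10 kb, Pearson's r of density was 0.86 between MT replicates 1 and 3, but 0.47 and 0.51 between MT replicate 2 and those libraries. MB replicates 2 and 3 had 0.75, and MB replicate 1 had 0.58 and 0.57 with them. MB replicate 3 resembled MT replicates 1 and 3 (0.64 and 0.58) as much as it resembled MB replicate 1. Across the 24 Neb windows r was 0.48 to 0.61 among myotube libraries, 0.34 to 0.53 among myoblast libraries, and -0.15 to 0.38 between groups. The windows share the sequence and mappability of the gene, so these values are descriptions.

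Each gene had 1 window with the lowest mean in both groups, below the peak-free level in every library. In Ttn, chr2:76790001-76800000 had 0.605 ± 0.0704 times the peak-free density in myoblasts and 0.655 ± 0.242 in myotubes (SD, n = 3). In Neb, chr2:52200001-52210000 had 0.751 ± 0.216 and 0.848 ± 0.153. They are centred 26 and 29 kb from the start of their intervals, and mappability was not measured.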
